A study of Mus musculus with 12 samples.

Results

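The genes described here are 33 genes of protein folding, stress sensing and protein degradation in the endoplasmic reticulum (ER), chosen by name from the 55401 genes listed in the deposited expression table. They comprise 9 ER chaperones of the Hsp70 and Hsp90 class with their partners, 2 lectin chaperones, 7 protein disulfide isomerases and related proteins, 6 stress sensors and transcription factors, 6 genes of ER-associated degradation and 3 genes of protein entry and glycosylation. All 33 were measured in organoids grown from airway epithelial cells of adult C57BL/6J mice, in 6 dishes in which a femtosecond laser had ablated 10 neighboring cells of each organoid and in 6 untreated control dishes. Cells of both groups carried a lentiviral vector in which the p63 promoter, active in basal cells, drives a Histone2A-mCherry fusion protein. Each library is a pool of 45 organoids from 1 dish. Both groups were switched to FluoroBrite DMEM without supplements 1 h before the laser treatment and harvested 4.5 h after it, so the medium change is shared and its effect is in both groups. Ablation and control dishes carry the numbers 1, 3, 4, 5, 6 and 7, and the 2 dishes of a number share passage, culture day (from 14 to 20) and date, so they form 6 pairs. Whether the pairs came from different animals is not given in the sources used here, and p-values then measure only the spread between these dishes.

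Secreted and membrane proteins enter the ER unfolded, where chaperones such as BiP, lectins that read sugar chains, and enzymes that form disulfide bonds bring them to their final shape. Proteins that fail are drawn back into the cytosol and degraded. When unfolded proteins accumulate, the sensors IRE1, PERK and ATF6 switch on the unfolded protein response, a transcriptional program whose targets include most of the chaperone and degradation genes described here. Airway epithelium makes mucins and other secreted proteins, and its secretory cells depend on this machinery.

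The target genes of ATF6 and XBP1 are known for the ER stress element in their promoters, in which a CCAAT box is followed, after 9 bases of any kind, by CCACG, the part that ATF6 and XBP1 recognize. A shorter form, ER stress element II, has ATTGG, 1 base of any kind and CCACG. RefSeq promoters on GRCm38.p6, of 300 bases from 250 bases before to 50 after the start site, were matched for 28 of the 33 genes, and both strands were searched. The first element was found in 8 of these 28 genes, against 0.137% of all 27025 genes with a promoter in the same table (37 genes). The second was found in Dnajb11 and Herpud1, against 0.0444% of all genes. Herpud1 was also the 1 member with the element TGATGCAA, which dimers of C/EBP and ATF proteins such as CHOP and ATF4 can bind, and which 1.03% of all genes hold. A match is a description of the letters and not evidence of binding, and a promoter without a match may hold a diverged element. The 10 promoters are printed because they allow the measured genes to be sorted by a known sequence of the response. Each line reads 5′ to 3′ on the strand of the gene, with 12 bases on either side of the outermost element. Capitals mark the CCAAT and CCACG parts of the first element (ATTGG and CGTGG where it lies on the opposite strand) and the whole of the second element. In Herpud1 they also mark TTGCATCA, which is TGATGCAA read on the opposite strand.
Hspa5, chr2:34772013-34772055, plus strand: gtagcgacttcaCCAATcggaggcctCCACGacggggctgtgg
Calr, chr8:84847063-84847105, minus strand: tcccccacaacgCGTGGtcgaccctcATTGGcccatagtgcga
Hsp90b1, chr10:86705521-86705668, minus strand: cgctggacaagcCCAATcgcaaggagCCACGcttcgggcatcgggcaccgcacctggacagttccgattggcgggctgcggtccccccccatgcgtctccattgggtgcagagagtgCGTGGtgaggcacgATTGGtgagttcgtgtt
Canx, chr11:50325788-50325830, minus strand: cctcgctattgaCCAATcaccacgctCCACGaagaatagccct
Pdia6, chr12:17266479-17266521, plus strand: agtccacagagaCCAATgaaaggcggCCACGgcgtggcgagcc
Dnajc3, chr14:118937815-118937857, plus strand: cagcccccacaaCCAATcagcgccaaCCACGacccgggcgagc
Creld2, chr15:88819508-88819550, plus strand: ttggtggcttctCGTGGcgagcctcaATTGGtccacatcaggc
Syvn1, chr19:6046520-6046562, plus strand: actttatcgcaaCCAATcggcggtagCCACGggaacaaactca
Dnajb11, chr16:22857840-22857874, plus strand: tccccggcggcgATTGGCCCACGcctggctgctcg
Herpud1, chr8:94386305-94386399, plus strand: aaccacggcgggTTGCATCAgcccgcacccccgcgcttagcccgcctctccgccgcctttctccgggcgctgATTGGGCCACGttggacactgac

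The values are normalized counts, read counts that the authors divided by 1 DESeq2 size factor per library, and they summed to between 27297950 and 28504390 per library. Libraries of a group correlated with r from 0.984 to 0.994 on the log2 scale, across genes. The label of airway epithelium was checked with marker lists, summed per library. The 8 basal markers, led by the keratins Krt5 and Krt14, had 521209 to 676561 normalized counts after ablation and 518950 to 644202 in the control. The 10 secretory and goblet cell markers had 29679 to 84576 and 35727 to 73856, mostly from the club cell gene Cyp2f2, while Scgb1a1 was near 0 (3.97 in the control). The 8 multiciliated markers, 4 of which were tested, had 10376 to 14229 and 10728 to 15541. Foxj1 was at only 11.9, so this sum came from other genes of the list. Fibroblast markers (195 to 495 and 227 to 456), immune markers (209 to 352 and 216 to 367) and alveolar type II markers (121 to 201 and 118 to 252, with Sftpc and Sftpb at 0 throughout) were lower, and endothelial markers reached at most 16.4. Of the markers tested, 5 of 6 secretory, 4 of 4 multiciliated and 4 of 4 immune genes had a fitted log2 fold change below 0 (medians -0.18, -0.14 and -0.17). The 1 alveolar type II gene also lay below 0, and 2 of 2 fibroblast genes above it. Basal markers split into 4 above and 4 below 0 (median -0.014). In the paired model 1 of these 8, Trp63 (named after its values were seen), was called higher, against 0.674% of all genes. Their part in the results was not tested. In these bulk libraries, fewer cells of a type and less RNA per cell cannot be told apart. The titles of controls 4, 6 and 7 contain the word ablation but are labelled as untreated under treatment, and that label was followed. They are the 3 controls of library set 2 (pairs 4, 6 and 7), so values within each library set are given beside the larger differences.

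Several genes of the ER folding machinery were among the most abundant transcripts of the control organoids. Levels between genes were compared as normalized counts per kb of exon. Hspa5, which encodes BiP, the central Hsp70 chaperone of the ER, had 7546 ± 709 per kb (SD, n = 6 control dishes) and stood at the 99.0th percentile of the 13792 genes tested. P4hb, the founding protein disulfide isomerase, followed with 7095 ± 156 per kb. Next came Hsp90b1 (GRP94, the Hsp90 of the ER) with 5315 ± 389, Pdia3 (ERp57, the isomerase that works with the lectin chaperones) with 5265 ± 327, and Calr (calreticulin, the soluble lectin chaperone) with 5155 ± 269 per kb. These 3 lay within their SDs of each other. The membrane-bound lectin chaperone Canx (calnexin) had 3279 ± 101 and Herpud1 2701 ± 141 per kb. Herpud1 encodes an ER membrane protein that organizes the degradation complex and is a classical target of the response.

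Of the sensors and transcription factors Xbp1 was the most abundant. Xbp1, the transcription factor whose mRNA IRE1 splices, had 1602 ± 74.2 normalized counts per kb in the control, while gene-level counts cannot separate its spliced from its unspliced form. Atf6b, a relative of ATF6, had 923 ± 69.5, Atf6 500 ± 24.8 and Ern1 (IRE1) 357 ± 28.8 per kb. Eif2ak3, which encodes PERK, had only 150 ± 15.1 per kb. At the low end stood Crebrf, a regulator of the ER-linked transcription factor CREB3, with 102 ± 26.3 per kb and the isomerase Pdia5 with 73.9 ± 16.1 per kb, at the 32.9th percentile of tested genes. All other members lay between 247 per kb (Derl2) and 1958 per kb (Pdia4). Manf overlaps Rbm15b on the same strand, so its reads could have been split between both genes.

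**Figure D1:**
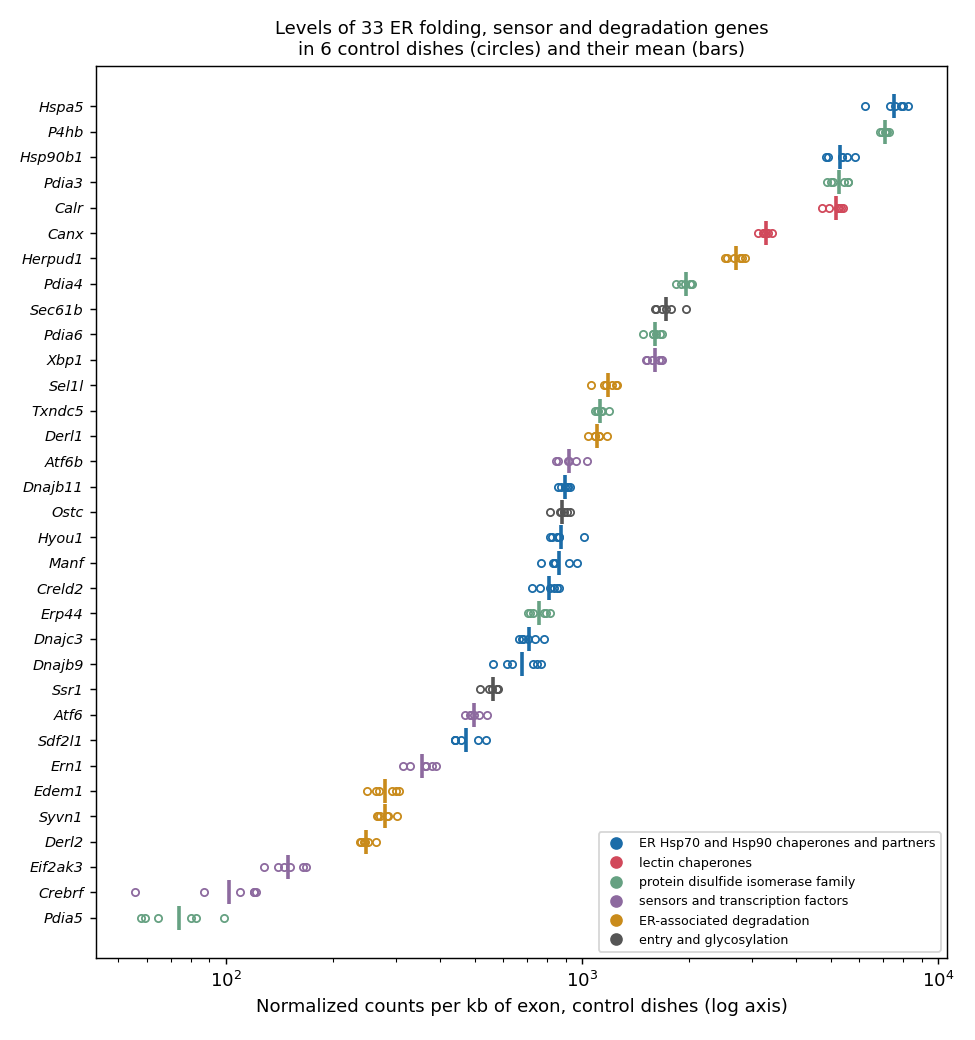
Levels of the 33 genes in the 6 control dishes. The horizontal log axis gives normalized counts per kb of exon, circles are dishes, vertical bars their mean, and colors mark the role of the gene. Hspa5 and P4hb stood highest (7546 and 7095 per kb), Crebrf and Pdia5 lowest (102 and 73.9 per kb).

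Ablation and control dishes were then compared to determine whether local laser damage was followed by a change in ER folding and stress genes. Differences between the groups were small and went both ways. Each library held whole organoids, so these differences are averages over cells near to and far from the ablated ones. With library set as the second factor in limma, 0 of the 33 genes passed an adjusted p-value of 0.05, against 0% of all 13792 genes tested, and edgeR on reads recovered for 9 libraries called 0 as well. At an unadjusted p under 0.05 stood 5 members, against 7.85% of all genes. Calr and Herpud1 were the 2 higher after ablation, against 4.15% of all genes, and Atf6b, Xbp1 and Dnajb9 the 3 lower, against 3.7%. When the pair replaced the library set, 1 member passed, against 1.09% of all genes (150 genes). It was Herpud1, which rose after ablation, against 0.674% of all genes, and 0 members were called lower, against 0.413%. In this paired model 8 members had an unadjusted p under 0.05, against 17.6% of all genes, 3 of them higher (8.78% of all genes) and 5 lower (8.86%). Adjusted p-values are given below for both models, named by the second factor, library set or pair. The median log2 fold change of the 33 genes was -0.047, against -0.0036 for all genes tested. Of the 33, 21 lay below 0, against 51.5% of all genes, and 12 above it. Fitted values ran from -0.21 (Pdia5) to 0.20 (Herpud1), that is from 0.863 to 1.15 times the control level on the log2(value + 1) scale. No member separated the groups completely, against 0.457% of all genes whose groups did not overlap.

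**Figure D2:**
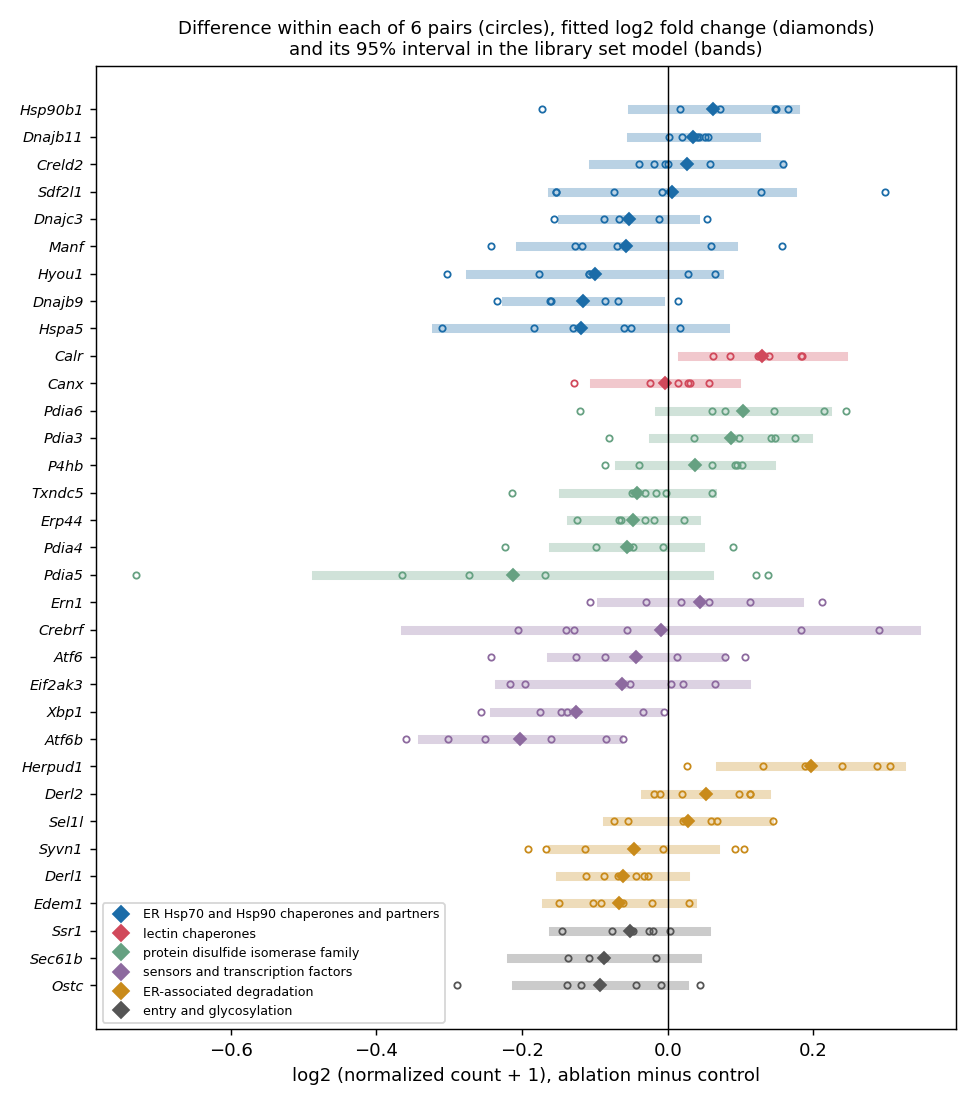
Ablation minus control on the log2(normalized count + 1) scale for the 33 genes, ordered by role and fitted value. Circles are the 6 pairs, diamonds the fitted log2 fold change, and bands its 95% interval in the library set model, unadjusted for the number of genes. Diamonds lie between -0.21 (Pdia5) and 0.20 (Herpud1), and the circles of Herpud1 and Calr lie above 0 in all 6 pairs while those of Atf6b and Xbp1 lie below it.

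In all 6 pairs, 3 members were higher after ablation (Dnajb11, Calr and Herpud1), against 5.17% of all genes, and 4 were lower (Atf6b, Xbp1, Derl1 and Sec61b), against 4.63%. Together these are 7 of 33 members, against 9.8% of all genes that moved in 1 direction in 6 of 6 pairs. The SD of the pair differences had a median of 0.095 over the members and of 0.15 over all genes tested, on the log2 scale. Pair 6 had the lowest median over the members (-0.092), with 25 of 33 genes lower after ablation. In the other pairs the median lay between -0.031 (pair 5) and 0.00060 (pair 3). With 1 pair left out of the paired model, the fitted value of 19 of the 33 members moved by over 1.5 times or changed sign, among them 9 of the 21 members with a size of at least 0.05, while 14 members moved less.

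The Hsp70 and Hsp90 chaperones and their partners split into 4 genes with a fitted value above 0 and 5 below, with a median log2 fold change of -0.054 and 0 of 9 past the threshold in either model. Hspa5 had a lowest value of 21319.5, a median of 30730.4 and a highest of 32534 normalized counts after ablation, against 26436, 32699.9 and 34892 in the control. Its groups overlapped, with ablation 1 far below all other dishes and control 1 the lowest of the controls. The log2 fold change was -0.12 (standard error 0.092 by library set and 0.044 by pair), lower in 5 of 6 pairs. Limma's adjusted p was 0.780 by library set and 0.191 by pair. Within library sets the value was -0.16 in set 1 and -0.080 in set 2. Dnajb9 (ERdj4), a co-chaperone of BiP and a target of XBP1, ranged from 1371 through a median of 1534 to 1932 after ablation and from 1438 through 1740.03 to 1964 in the control. It was lower in 5 of 6 pairs by a fitted log2 value of -0.12 (adjusted p = 0.619 by library set, 0.181 by pair), with -0.15 in set 1 and -0.078 in set 2. Hyou1 (GRP170), a large chaperone that releases nucleotide from BiP, had a log2 fold change of -0.10 (standard error 0.079; adjusted p = 0.787 and 0.289), and -0.060 without pair 1. In the other direction, Hsp90b1 had 0.063, with 5 of 6 pairs higher and pair 3 lower (adjusted p = 0.798 and 0.514), and 0.11 without pair 3. Dnajb11 (ERdj3) was the least variable of the group: all 6 pairs were higher, by log2 values of 0.0013 to 0.055, around a fitted value of 0.035 (adjusted p = 0.855 and 0.627). Dnajc3, which encodes an inhibitor of PERK, Sdf2l1, a partner of ERdj3, Manf, a secreted protective factor, and Creld2 had fitted values between -0.057 (Manf) and 0.026 (Creld2).

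Of the lectin chaperones, which hold glycoproteins in the ER until they fold, Calr was higher in every pair and Canx showed no common direction. Calr had a lowest value of 14409, a median of 16490.3 and a highest of 17176 after ablation, against 13574, 15135 and 15579 in the control. Apart from ablation 1, every ablation dish exceeded the highest control. Pair differences ran from 0.063 to 0.18, with a fitted log2 fold change of 0.13 (standard error 0.051). The adjusted p in limma was 0.614 by library set and 0.0914 by pair, so it passed in neither. Within library sets the value was 0.14 in set 1 and 0.12 in set 2. Canx, with the same task in the membrane, had 15360 ± 788 normalized counts after ablation and 15390.2 ± 474 in the control (SD, n = 6), a log2 fold change of -0.0039 with a 95% interval from -0.10 to 0.094. A pseudogene of Calr, Calr-ps, had a mean of 0.92 normalized counts.

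Among the 7 disulfide isomerases, which form and rearrange disulfide bonds, P4hb, Pdia3 and Pdia6 had fitted values above 0 and the other 4 below, and 0 of 7 passed the threshold in either model. Pdia6 (P5) had a lowest value of 5799.6, a median of 6441 and a highest of 7039.8 after ablation, against 5567, 5999 and 6306 in the control. It was higher in 5 of 6 pairs, and pair 6 was lower by a log2 difference of -0.12. Its log2 fold change was 0.10 (standard error 0.053; adjusted p = 0.661 by library set, 0.267 by pair), with 0.15 in set 1 and 0.058 in set 2. Pdia3 had 0.086 (adjusted p = 0.698 and 0.292) and P4hb 0.037 (adjusted p = 0.871 and 0.655), and in both genes pair 6 was also below 0. Pdia4 (-0.056), Erp44 (-0.047), which retrieves proteins from the Golgi, and Txndc5 (-0.042) lay below 0, each lower in 5 of 6 pairs. Without pair 6, Pdia4 had -0.023 and Txndc5 -0.0071. Pdia5, the member with the lowest counts, had 205 ± 44.6 normalized counts in the control and 173 ± 9.31 in ablated dishes. Control 3 stood highest, at 274. Its log2 fold change of -0.21 (standard error 0.13; adjusted p = 0.707 and 0.339) became -0.11 without pair 3.

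Of the sensors and transcription factors, 5 of 6 had a fitted value below 0, and 0 of 6 passed the threshold in either model. Atf6b differed most. Its ablation dishes had a lowest value of 1847, a median of 2272 and a highest of 2383 normalized counts, against 2329, 2532 and 2852 in the control. Both groups overlapped only slightly, with ablation 1 and 6 above the lowest control, control 7. Pair differences ran from -0.36 to -0.062, around a fitted -0.20 (standard error 0.062). In limma the adjusted p was 0.537 by library set and 0.0551 by pair. Set 1 gave -0.24 and set 2 -0.17. Xbp1 was lower in all 6 pairs too, by log2 differences from -0.26 (pair 6) to -0.0044 (pair 1). Its values were 4439.8, 4728 and 5339 (lowest, median and highest) after ablation and 4916, 5227 and 5449 in the control, with ablation 1 standing among the controls. The log2 fold change of Xbp1 was -0.13 (standard error 0.052; adjusted p = 0.619 and 0.139). It was -0.062 in library set 1 and -0.19 in set 2, a difference that did not pass (adjusted p = 0.999 for the interaction in limma). Ern1 was the 1 gene of this group above 0, at 0.044 with a 95% interval from -0.092 to 0.18, and Atf6 lay at -0.043 with an interval from -0.16 to 0.074.

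Of the 6 genes of ER-associated degradation, Herpud1 was the member with the largest value above 0. Ablation dishes had a lowest value of 5989, a median of 7345 and a highest of 7987 normalized counts, against 5878, 6357 and 6681 in the control. Of the ablation dishes, 5 exceeded every control, and ablation 1 lay among the lowest controls. Its log2 fold change was 0.20 (standard error 0.058 in the library set and 0.042 in the paired model), a fold of 1.15, and it was higher in 6 of 6 pairs, by 0.027 (pair 1) to 0.31 (pair 4). By library set the adjusted p was 0.522, and by pair it was 0.0444, just under the threshold. Without pair 1 the paired model gave an adjusted p of 0.0230, while without any of the pairs 3, 4, 5, 6 and 7 it lay between 0.0707 and 0.161. With plain empirical Bayes variances it was 0.182. EdgeR on recovered reads with the pair gave 0.314, but without pairs 3 and 4, whose Herpud1 differences were the largest (0.29 and 0.31). Within library sets the log2 value was 0.15 in set 1 and 0.24 in set 2. The ubiquitin ligase Syvn1 (HRD1) and its partner Sel1l, which form the core of the degradation complex, had -0.047 and 0.028. Edem1, which delivers misfolded glycoproteins to it, had -0.066, and the channel proteins Derl1 and Derl2 had -0.062 and 0.052. Derl1 was lower in all 6 pairs, by -0.11 to -0.027, and none of these 5 genes had an unadjusted p under 0.05 in either model.

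The 3 genes of entry and glycosylation all had fitted values below 0, and 0 of 3 passed in either model. Sec61b, a subunit of the channel through which new chains enter the ER, had 2068 ± 214 normalized counts after ablation and 2193 ± 166 in the control (SD, n = 6). It was lower in 6 of 6 pairs, by -0.14 to -0.016, around a fitted -0.087 (adjusted p = 0.740 and 0.231). Ostc, of the oligosaccharyltransferase that attaches sugar chains, had -0.092 and Ssr1, of the translocon-associated complex, -0.052, each lower in 5 of 6 pairs. Without pair 6, Ostc had -0.053 and Ssr1 -0.033.

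**Figure D3:**
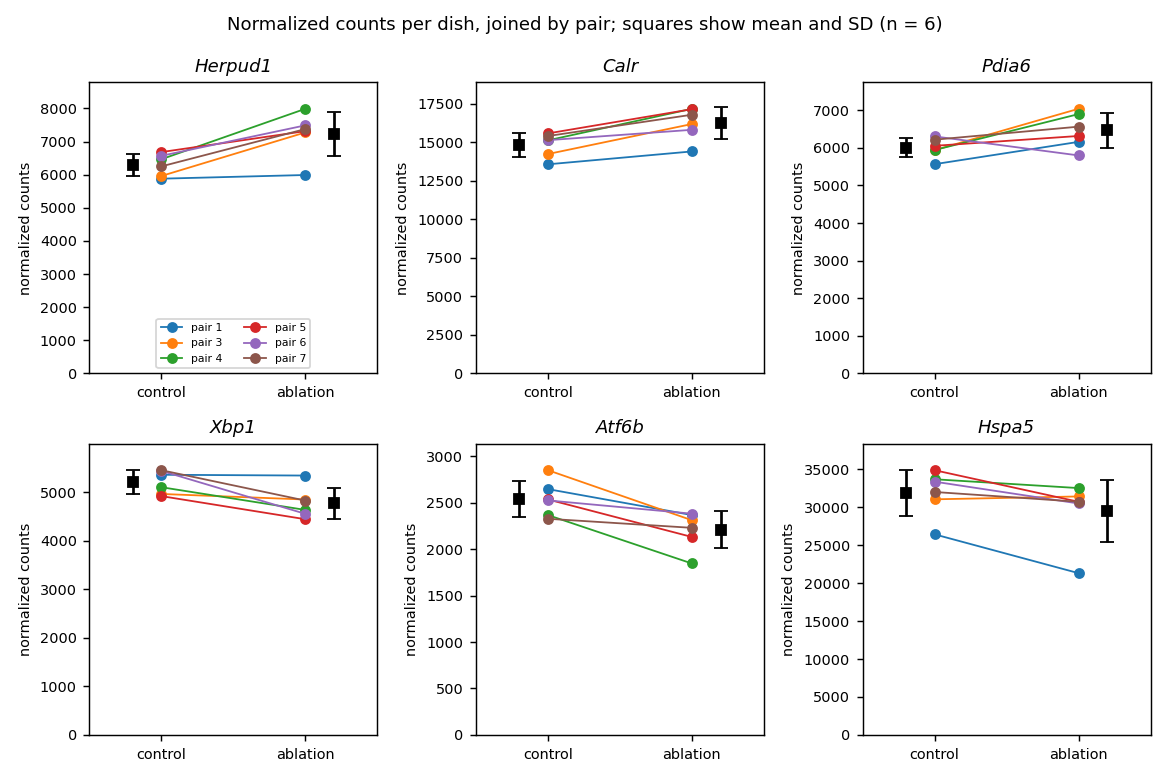
Normalized counts of Herpud1, Calr, Pdia6, Xbp1, Atf6b and Hspa5 per dish. The vertical axes start at 0, lines join the control and ablation dish of a pair, and squares with bars give mean and SD (n = 6). All 6 lines of Herpud1 and Calr slope upward to the ablation dish, all 6 of Xbp1 and Atf6b slope downward, and both dishes of pair 1 lie lowest for Hspa5.

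Sorted by promoter sequence, the members did not share a direction. Of the 8 genes with the ER stress element printed above, 4 had a log2 fold change above 0 and 4 below, from -0.12 (Hspa5) to 0.13 (Calr), with a median of 0.011. Both genes with ER stress element II, Dnajb11 and Herpud1, were higher in all 6 pairs, with log2 fold changes of 0.035 and 0.20. The 18 matched members with neither element had 6 values above 0 and 12 below, with a median of -0.049. These are descriptions of fitted values, and the difference between the sets was not tested.

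Levels also differed between pairs, most of all for Crebrf. Crebrf had 583 and 477 normalized counts in the ablation and control dish of pair 3, against 718 to 1068 and 747 to 1039 in the other pairs. Relative to the mean of all pairs, pair 3 lay at -0.68 on the log2 scale. Its pair means had an SD of 0.37, against a median of 0.083 for the members and 0.14 for all genes tested. Dnajb9 varied next most, with pair 3 at -0.23 and pair 4 at 0.22.

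In pair 1, 23 of 33 members lay below their mean over pairs, with Hspa5 at -0.36 followed by Herpud1 (-0.18), Hyou1 (-0.18), Creld2 (-0.18) and Dnajb9 (-0.15). Crebrf (0.25), Sec61b (0.22) and Eif2ak3 (0.21) stood above it in the same pair. Pair 4 was the opposite, with 25 members above their mean. Ablation 1 was the lowest of all 12 libraries for 8 members, ablation 6 for 7, control 3 for 6 and control 1 for 5. The highest library was ablation 4 for 8 members and control 3 for 7. Pairs 1 and 4 had the same culture day, 14, but differed in library set (1 and 2) and passage (P2+14 and P2+15). The cause of their different levels was not tested.

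**Figure D4:**
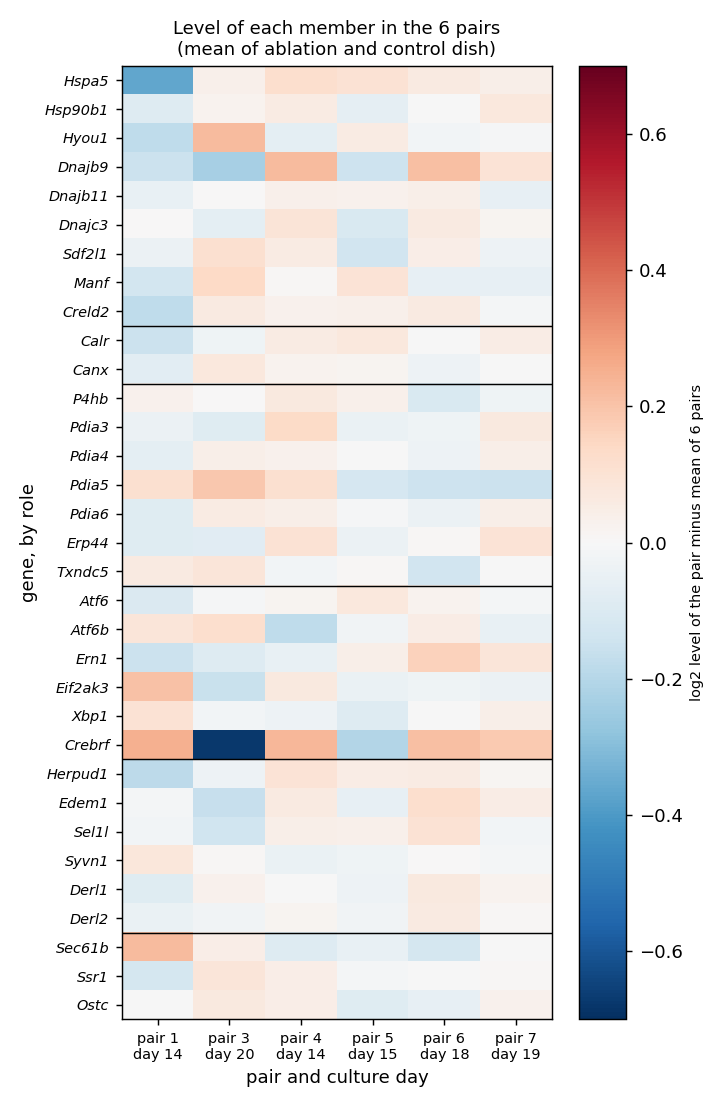
Level of each of the 33 genes in each pair, as the mean of the log2 values of its ablation and control dish minus the mean over the 6 pairs (color scale). Columns are pairs with their culture day, rows are genes by role, and horizontal lines separate the roles. Pair 1 is low for Hspa5 (-0.36) and pair 3 for Crebrf (-0.68).

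Culture day was tested on the 6 pair means, with library set as a second factor. No member passed the threshold (0 of 33), against 0% of all genes, and 1 member, Crebrf, had an unadjusted p under 0.05, against 7.58% of all genes. Its slope was -0.084 per day on the log2 scale (standard error 0.031, adjusted p = 0.639 in limma). Hyou1 followed with a slope of 0.038 and Eif2ak3 with -0.038 per day (adjusted p = 0.651 and 0.664). The Crebrf values of day 20 come from pair 3 alone.

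The response to ablation was also compared between the library sets. Set 1 held passages P2+14 (pairs 1 and 3) and P2+15 (pair 5). Set 2 held P2+15 (pair 4) and P2+16 (pairs 6 and 7), so library set and passage cannot be fully told apart. With library set in the model, 0 members passed for the interaction and 0 had an unadjusted p under 0.05, against 1.67% of all genes. In the paired model 0 members passed, against 0.00725% of all genes (1 gene), and 1 member had an unadjusted p under 0.05, against 7.88%. That member was Crebrf, with log2 fold changes of 0.14 in set 1 and -0.16 in set 2 (adjusted p = 0.579 for the difference). All members were also screened for opposite directions in both sets, without a count over all genes, and Eif2ak3 was found. Eif2ak3 was higher after ablation in each pair of set 1, by 0.0048 to 0.065, and lower in each pair of set 2, by -0.22 to -0.052. The difference between both sets was -0.19, with an adjusted p of 0.999 by library set and 0.648 by pair.

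Other genes of the pathway, outside the 33, were followed as lists. Of 82 listed genes, 77 were tested. In the library set model 0 passed, and in the paired model 2 passed, against 1.09% of all genes, 1 higher (0.674%) and 1 lower (0.413%). Nupr1, a stress-induced target of ATF4, was higher in 5 of 6 pairs and lower in pair 1, with 18036 ± 4137 normalized counts after ablation and 14362 ± 2485 in the control (log2 fold change 0.31; adjusted p = 0.633 and 0.0451 in limma), and with 0.29 in set 1 and 0.34 in set 2. Sec24d, a coat protein of the vesicles that carry cargo out of the ER, was lower in 6 of 6 pairs, with 423 ± 79.8 against 559 ± 72.0 normalized counts (log2 fold change -0.41; adjusted p = 0.346 and 0.0153), and with -0.38 in set 1 and -0.45 in set 2. With 1 pair left out of the paired model, Nupr1 passed without pair 1 (adjusted p = 0.00408) and not without any other pair (0.0766 to 0.185), and Sec24d lost the call without pair 4 (0.0829). Under plain empirical Bayes neither passed (0.195 and 0.123). Neither passed in edgeR on recovered reads with the pair, which lacked pairs 3 and 4 (adjusted p = 0.307 and 0.20). Nupr1 also lost the call when all genes with any count entered the paired model (0.193).

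The PERK and ATF4 output list had 8 of 11 genes above 0 and a median of 0.10, from -0.11 for the asparagine synthetase gene Asns to 0.42 for the transcription factor gene Atf3. Over all genes tested, 48.5% lay above 0. In library set 2, 9 of the 11 genes lay above 0, with a median of 0.22, and in set 1 4 of 11, with a median of -0.011. Shares above 0 over all genes were not counted within the sets. The controls of set 2 are those with the word ablation in their titles. Atf3 had 0.23 in set 1 and 0.60 in set 2. Genes named next were chosen after their values were seen. Ddit3, which encodes CHOP, had 0.12 and 0.41, and the gene of ATF4 itself, Atf4, -0.011 and 0.22. In set 2 alone, Atf3, Ddit3 and Nupr1 passed in limma with the pair (adjusted p = 0.0105, 0.0329 and 0.0264), where 109 of 13792 genes passed. In set 1 alone none of these did (0.783, 0.466 and 0.368), where 16 of 13792 genes passed. The difference between the sets had an unadjusted p under 0.05 in the paired model for 5 of the 11 genes (Atf4, Ddit3, Chac1, Asns and Eif2s1), against 7.88% of all genes, and passed adjustment for 0 of them. In the library set model 0 of the 11 had an unadjusted p under 0.05 for this difference, against 1.67% of all genes. The other translocon and oligosaccharyltransferase genes, in contrast, lay mostly below 0 (14 of 20, median -0.025). The largest values on either side were 0.085 for Sec11c and -0.11 for Spcs2, both subunits of the signal peptidase. Of other folding and oxidation genes 8 lay above and 8 below 0, between the co-chaperone gene Dnajc1 (-0.096) and the oxidase gene Ero1lb (0.13). All 5 genes of the lectin cycle lay between Ganab (-0.056), a glucosidase, and Uggt1 (-0.00082), which marks unfolded glycoproteins for another round. In the remaining degradation genes 9 of 15 lay below 0, from Edem2 (-0.17) to Ufd1 (0.084), and in other regulators 7 of 10, from Sec24d to Nfya (0.14), a subunit of the factor that binds the CCAAT box. Apart from Nupr1 and Sec24d, no gene named here from the pathway lists passed in either model.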

How the data were processed

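RNA of 12 dishes was made into stranded poly(A) libraries and sequenced in paired ends. The deposited signal values used here are normalized counts per gene, for which the authors scaled reads by 1 DESeq2 size factor per library. The submitters' processing notes name bcl2fastq, DESeq2 and the build GRCm38.p6, and the strand setting of the counting is not given in the sources used here. The deposited table also holds 5 columns of the authors' own DESeq2 comparison, a log2 fold change, score columns (its standard error and test statistic) and p-values, which were not used. At least 99.97% of values per library were whole multiples of a single step (tolerance 0.02). Whole reads were accepted for 9 libraries (23631212 to 29775699 reads) and not for ablation 3, ablation 4 and control 4, whose step is near 1.

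Of 55401 genes listed, 28534 had any count, and 13792 reached the minimum of 10 normalized counts in 6 libraries or more and entered the tests. Values were log2(normalized count + 1). Tests used limma 3.58.1 (empirical Bayes with trend and robust estimation) in R 4.3.3, with condition and library set as factors, since the methods name a batch without defining it. Library set was read from 2 runs of library numbers. Benjamini-Hochberg adjustment ran over all genes tested, with a threshold of 0.05. In the paired model (replicate block) the pair replaced the library set. After subtracting group means, same-numbered dishes correlated across genes (r = 0.62, 0.49, 0.21, 0.32, 0.38 and 0.33 in pairs 1, 3, 4, 5, 6 and 7). The pairing comes from the passage, day and date in the titles. Alternatives covered the pseudocount, filter, normalization, variance model, library sets, left-out pairs and edgeR 4.0.16 on recovered reads. EdgeR with the pair left out pairs 3 and 4, in which reads were not accepted for at least 1 dish. Models were tested on simulated data first. For ablation against control, 200 genes were changed by a log2 size of 0.6. That is larger than any fitted value of the members, and smaller sizes were not simulated for this comparison. Figures were drawn with matplotlib 3.10.9.

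The 33 members and all lists were chosen with earlier results of these data known. All members were named by rule. Of the other pathway lists, the rule named genes past the threshold in either model and the largest and smallest fitted log2 fold change per list. Atf4, Ddit3, Chac1 and Eif2s1 were named outside this rule, after their values were seen, as was the marker gene Trp63. Levels per kb used the exon length listed per gene in the deposited table. Exons overlap a gene on the same strand for Manf (Rbm15b), Hsp90b1 (Gm15344 and Gm25745) and Pdia4 (Mir704), and on the opposite strand for Hsp90b1, Manf, Dnajb9, Pdia3, Pdia6, Txndc5, Eif2ak3, Syvn1 and Derl2.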

Additional observations from a re-analysis of the deposited data

Results flagged for a closer look

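Each group of 6 dishes was examined for a highest or lowest value far from the others (gap to the nearest dish over the group's range above 0.625). Of 66 groups, 2 for each of the 33 genes, 6 met this criterion, and chance flags about 1 group in 20. Ablation 1 accounted for 5 of the 6. It was the lowest ablation dish for Hspa5, with 21319.5 normalized counts against 30502.5 in the next dish, for Creld2 (976, next 1136), for Atf6 (3893, next 4470.2) and for Herpud1 (5989, next 7275). For Eif2ak3 it was the highest, with 1017 against 858. The remaining value was Hyou1 in control 3, the highest control at 7331 against 6255. Without pair 1, the log2 fold changes of Hspa5 and Herpud1 were -0.081 and 0.23 in place of -0.12 and 0.20. All 33 members were screened for opposite directions in both library sets. The share over all genes was not counted, so a find among the members cannot be set against it. Eif2ak3 was the 1 member found, with all 3 pairs of set 1 higher and all 3 pairs of set 2 lower after ablation. The log2 difference of -0.19 did not pass the test of the interaction (adjusted p = 0.999 in limma).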

How the results depend on the processing

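The median log2 fold change of the 33 genes stayed below 0 in all settings run, from -0.056 (library set 2 alone) to -0.029 (edgeR on recovered reads). The count of members past the threshold moved from 0 to 1 with the replicate block (Herpud1), and from 0 to 150 for all genes. Of the other pathway genes, Nupr1 and Sec24d were called under the block, which changed no other call of a named pathway gene. Of the basal markers, Trp63 was called under the block as well (adjusted p = 0.00825 in limma, 0.187 by library set). Library set 1 alone called 16 genes and set 2 alone 109, both with the pair in the model and 0 members. All genes with any count gave 3 genes, and edgeR with the pair, which lacked pairs 3 and 4, also gave 3. Further settings were chosen after seeing the data: the replicate block with quantile normalization gave 168 genes and 2 members (Herpud1 and Atf6b), with TMM factors 151 and 1, and with all genes with any count 356 and 3 (Calr added). With plain empirical Bayes the block called 0. With 1 pair left out, counts ran from 0 to 176 genes and from 0 to 1 member. The block called 8 genes without pair 4. Herpud1 passed without pair 1 but not without pair 3, 4, 5, 6 or 7, and Atf6b passed without pair 7 (adjusted p = 0.0485). For the interaction the block called 1 gene, and for culture day leaving out 1 pair gave 0 to 1 gene. The cause of these changes was not tested.

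Of 1334 fitted values of single genes under alternatives, 41 changed sign, in 9 genes, the largest of them at 0.14. With 1 pair left out, values ran from -0.016 to 0.021 for Canx, -0.070 to 0.030 for Crebrf, -0.0005 to 0.039 for Creld2, -0.052 to 0.038 for Sdf2l1 and -0.020 to 0.031 for Uggt1. Set 1 alone gave 0.015 for Canx, 0.14 for Crebrf, -0.0069 for Creld2, 0.030 for Eif2ak3, -0.078 for Sdf2l1 and 0.0085 for Uggt1. Set 2 alone gave 0.0018 for Atf6, 0.033 for Manf and -0.010 for P4hb. EdgeR gave 0.093 for Crebrf, -0.0002 for Creld2, -0.076 for Sdf2l1 and 0.0046 for Uggt1, and with the pair -0.024 for Sdf2l1 and 0.018 for Uggt1. Quantile normalization gave 0.0008 for Canx and 0.0057 for Uggt1, and TMM factors 0.0009 for Uggt1, with or without the block.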
